A study of Mus musculus with 18 samples.

Results

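Chromatin accessibility was examined at 8 mouse genes that encode transcription factors of the nervous system, namely Pax6, Sox1, Olig1, Olig2, Neurog1, Neurog2, Neurod1 and Otx2, out of 21774 protein-coding genes. The genes were chosen by name, and every merged ATAC-seq peak over a gene or within 100 kb of either of its annotated ends (GRCm38, the build of mm10) was assigned to it. This gave 166 distinct peaks out of 166066 in the series. The 8 windows hold 188 peaks in sum, because the windows of Olig1 and Olig2 overlap and share 22.

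ATAC-seq marks accessible DNA by where a transposase can insert. The series has 18 libraries of 100000 cells each from the mouse embryonic stem cell line dTKO, kept in medium with serum and LIF. Each of 0, 3, 6, 12, 24 and 48 h has 3 biological repeats, and 0 h is the stated baseline. All 6 groups carry the same labelled genotype, Suv39h1fl/fl, Suv39h2-/- and Setdb1fl/fl, and the same labelled treatment, the 0 h libraries included, auxin (100 µg/ml) and dTAG13 (0.5 µM), agents that trigger degradation of proteins fused to a matching tag. The labels do not say which proteins carry a tag, and 1 line was used throughout. Suv39h1, Suv39h2 and Setdb1 methylate lysine 9 of histone H3, a mark of heterochromatin, and the series asks where chromatin opens once they are removed. The peak list used here is merged over all libraries and gives positions only. It therefore shows where DNA was accessible in at least some library, cannot be divided by time, and carries no read depth and no error between replicates. No test was run, and counts are set beside the share over all protein-coding genes or promoters where one was computed.

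Neural fate is set by a succession of transcription factors. Sox1 is among the earliest markers of the neural plate, Pax6 and Otx2 pattern the forebrain and eye, the bHLH factors Neurog1 and Neurog2 start neuronal differentiation and Neurod1 carries it on, and Olig2 and Olig1 act in motor neuron and oligodendrocyte lineages. In embryonic stem cells such genes are mostly silent or low, yet many of their promoters are CpG-rich and carry Polycomb marks beside active ones. Otx2 is also known in the transition of stem cells out of the naive state.

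Promoter sequences of RefSeq (GRCm38.p6), which span 250 bases before to 50 bases after an annotated start, were available for 7 of the 8 genes, 11 starts in all, and not for Olig1. Both Pax6 and Otx2 have several starts of which some lay under a peak and others did not. A contrasting pair of promoters is printed for each, 5′ to 3′ on the strand of the gene, with every CpG in capitals. The first Pax6 promoter (chr2:105668646-105668945, plus strand) lay wholly in a peak and the second (chr2:105682213-105682512, plus strand) held none. The first Otx2 promoter (chr14:48667595-48667894, minus strand) held no peak and the third (chr14:48665060-48665359, minus strand) lay wholly in one.
Pax6, start 1, in a peak: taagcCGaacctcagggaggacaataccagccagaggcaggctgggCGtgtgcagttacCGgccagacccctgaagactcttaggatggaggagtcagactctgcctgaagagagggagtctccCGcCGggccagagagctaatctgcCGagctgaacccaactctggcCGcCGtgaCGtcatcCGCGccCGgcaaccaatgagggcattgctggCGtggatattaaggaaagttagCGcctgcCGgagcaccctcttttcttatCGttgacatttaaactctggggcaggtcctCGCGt
Pax6, start 2, no peak: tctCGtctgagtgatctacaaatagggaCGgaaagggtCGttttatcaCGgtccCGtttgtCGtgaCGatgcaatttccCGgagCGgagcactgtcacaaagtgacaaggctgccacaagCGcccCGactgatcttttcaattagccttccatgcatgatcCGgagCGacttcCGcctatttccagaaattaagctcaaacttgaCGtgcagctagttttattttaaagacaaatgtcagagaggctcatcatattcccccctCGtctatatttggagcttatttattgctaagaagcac
Otx2, start 1, no peak: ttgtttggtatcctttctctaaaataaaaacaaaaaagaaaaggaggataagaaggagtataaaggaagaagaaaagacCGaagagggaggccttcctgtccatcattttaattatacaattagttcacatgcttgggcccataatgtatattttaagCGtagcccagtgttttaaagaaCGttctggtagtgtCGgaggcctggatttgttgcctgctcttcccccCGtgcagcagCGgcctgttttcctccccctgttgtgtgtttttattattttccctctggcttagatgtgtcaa
Otx2, start 3, in a peak: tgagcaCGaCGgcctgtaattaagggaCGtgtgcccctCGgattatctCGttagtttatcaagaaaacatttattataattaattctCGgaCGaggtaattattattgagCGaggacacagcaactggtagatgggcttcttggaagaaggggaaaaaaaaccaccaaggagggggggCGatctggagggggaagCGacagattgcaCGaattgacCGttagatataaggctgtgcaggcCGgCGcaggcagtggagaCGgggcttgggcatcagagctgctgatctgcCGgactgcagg

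Each of the 8 genes had a peak within 500 bp of an annotated end, against 71.4% of all protein-coding genes. Olig1 and Neurog1 had a peak at both ends, and 18.2% of protein-coding genes did. The widest peak touching an end was 2730 bp at Olig1, 2455 bp at Pax6, 1763 bp at Neurog2, 1360 bp at Neurog1, 1217 bp at Olig2, 1112 bp at Sox1, 572 bp at Neurod1 and 235 bp at Otx2. Their median, 1288.5 bp, lay beside 1326 bp over all protein-coding genes with such a peak. The count for Otx2 rests on 1 bp: its peak of 235 bp begins 500 bp outside the gene, at the very edge of the window. With windows of 250 bp, or an overlap of at least 200 bp, 7 of 8 genes had a peak and Otx2 was the exception.

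Starts of known strand separated the genes further. A peak overlapped 8 of the 11 promoters, against 67.9% of 21263 promoters of protein-coding genes, and 7 of the 11 starts themselves lay inside a peak. Sox1, Olig2, Neurog1, Neurog2 and Neurod1, with 1 start each in the table, all had a peak over the promoter. For Sox1, Olig2, Neurog1 and Neurod1 it covered all 300 bases. For Neurog2 it covered 102 bases, those nearest the start and beyond, while a separate peak of 577 bp lay just upstream and covered the lower annotated end. At the outermost start alone, 6 of 7 genes had a promoter peak, Otx2 being the exception, against 67.7% of 17492 genes.

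Of the 4 Otx2 starts, 1 lay in a peak. Its outermost start, at 48667644 on chromosome 14, lay 500 bp from the nearest peak, and the second start, at 48667508, lay 526 bp from one. The third start, at 48665109, sat inside a peak of 676 bp (48664892 to 48665567), and the fourth, at 48662734, had a peak of 225 bp that reached 31 bases of its promoter but ended 220 bp short of the start. Between the second and the third start stood another peak, 1011 bp wide (48665972 to 48666982). Pax6 showed the reverse order. Its outermost start, at 105668896 on chromosome 2, lay in a peak of 2455 bp (105666491 to 105668945), whereas its inner start, at 105682463, lay 826 bp from the nearest peak, which was 205 bp wide. Among 2761 protein-coding genes with several starts in the table, 31.3% had at least 1 promoter with a peak and 1 without, as Pax6 and Otx2 did.

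Peaks over starts also differed in the side they extended to. The Pax6 peak reached 2405 bp upstream of the start and 49 bp downstream. The Neurog2 peak had the opposite layout, 52 bp upstream and 1710 bp downstream, which takes in much of that short gene. At Neurog1 the extents were 461 bp upstream and 898 bp downstream, at Sox1 590 and 521 bp, at Olig2 702 and 514 bp, at Neurod1 427 and 144 bp, and at the third Otx2 start 458 and 217 bp. Peaks holding a start of any protein-coding gene had median extents of 573 bp upstream and 694 bp downstream. Among the 7, the Pax6 and Neurog2 peaks were the most uneven, and how often single peaks are so uneven was not computed. The listed Neurog2 start, at 127633136, lies inside the annotated gene, which begins at 127632733, so its extents depend on that start.

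**Figure D1:**
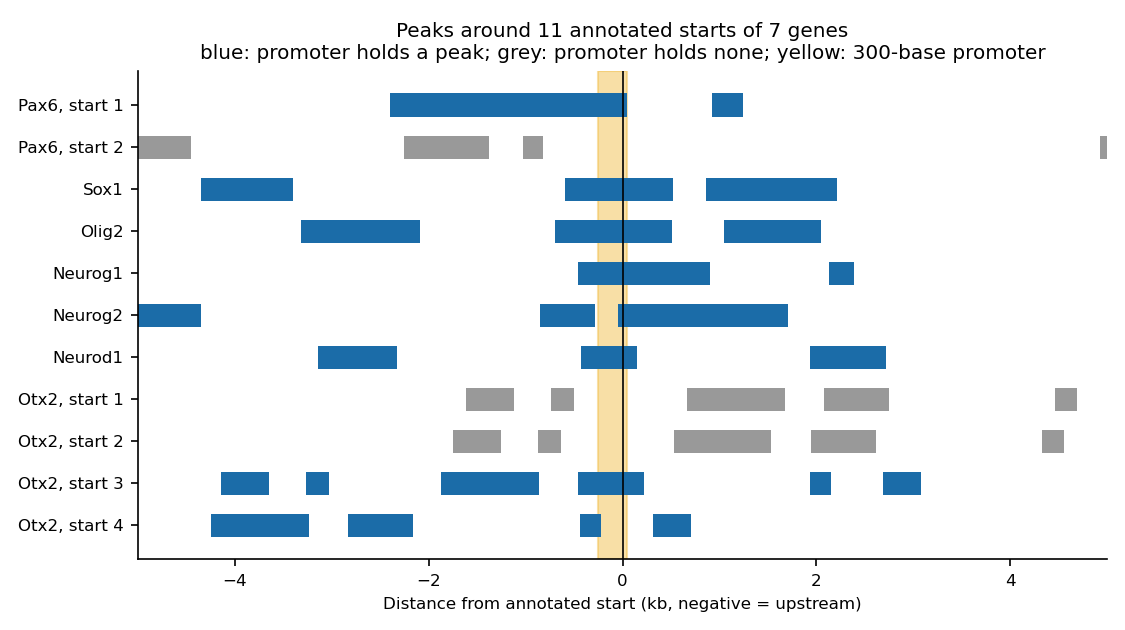
Peaks within 5 kb of each of the 11 annotated starts of 7 neural transcription factor genes; the horizontal axis is distance from the start in kb (negative upstream), bars are peaks, and the yellow band is the 300-base promoter. Rows in blue hold a peak over the promoter (8 starts), and rows in grey, Pax6 start 2 and Otx2 starts 1 and 2, hold none.

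CpG content varied over the 11 promoters. The 8 with a peak held 10 to 37 CpG in 300 bases (median 21.5), and the 3 without held 6, 8 and 16. Over all protein-coding promoters the medians were 20 with a peak and 2 without. The 2 outer Otx2 promoters had an observed to expected CpG ratio of 0.46 and 0.47, and the third Otx2 promoter 0.89. Among protein-coding promoters with a ratio of 0.4 to 0.6, 83.0% had a peak (95% Wilson interval 81.5 to 84.3), and the share was 97.5% for 0.6 to 0.8 but 13.4% below 0.2. The ratios of the outer Otx2 promoters therefore lie where most promoters, but not all, had a peak.

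The inner Pax6 promoter stood out by this measure. Its ratio was 1.00, with 16 CpG and a GC content of 46.3%, and it held no peak, whereas the covered outer Pax6 promoter had a ratio of 0.70, 18 CpG and 58.7% GC. Only 35 of 4254 protein-coding promoters with a ratio of 0.8 to 1.0 lacked a peak (0.823%). By GC content the inner Pax6 promoter was less unusual. The median GC of protein-coding promoters was 61.3% with a peak and 45.7% without. The third Otx2 promoter, with the same 16 CpG and 51.0% GC, was fully covered. Sox1 had the highest ratio and count, 1.07 and 37 CpG, followed in count by Neurog1 with 32, Neurod1 with 26 and Olig2 with 25. Neurog2 had the fewest of the covered set, 10 CpG, and a ratio of 0.57.

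**Figure D2:**
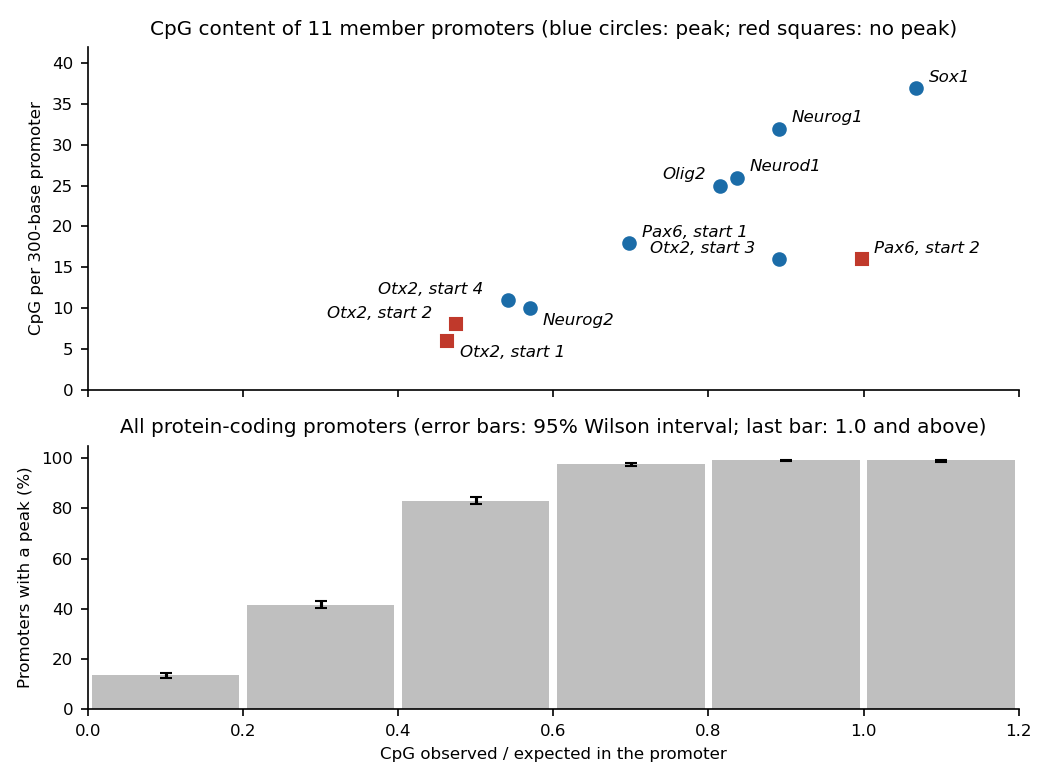
Upper panel: CpG count (vertical axis) against observed to expected CpG ratio (horizontal axis) of the 11 promoters of 7 neural transcription factor genes, with blue circles for promoters with a peak and red squares for those without. Lower panel: percent of all protein-coding promoters with a peak by the same ratio (bars, with 95% Wilson intervals), which runs from 13.4% below 0.2 to 99.2% at 0.8 to 1.0, the bin of the inner Pax6 promoter that has no peak.

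Short sequence motifs were looked up in the 11 promoters on both strands, as a description of their letters. The octamer ATGCAAAT, bound by POU factors such as Oct4, was present in 2 of 11, those of Neurog1 and Sox1, and in 1.66% of all 21263 protein-coding promoters. In Neurog1 it lies 138 to 131 bases before the start, and in Sox1 18 to 25 bases after it. The stretch around it is printed for both (chr13:56252285-56252344, minus strand, and chr8:12395511-12395568, plus strand), with the octamer in capitals; both stretches lay inside the peak over the start.
Neurog1, octamer: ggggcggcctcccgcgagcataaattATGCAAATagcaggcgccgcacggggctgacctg
Sox1, octamer: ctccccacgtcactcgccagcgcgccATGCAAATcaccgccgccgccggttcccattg

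Other motifs searched are more common among promoters. The E-box CANNTG, read by bHLH factors, occurred in 6 of 11 promoters (69.0% of all), the GC box GGGCGG in 5 (46.2% of all) and CCAAT in 5 (38.2% of all). The letters TAATCC, which OTX proteins bind, occurred in 1 of 11 (6.42% of all), read as GGATTA 211 bases before the third Otx2 start in the sequence printed for it. CATTGT, a core bound by SOX factors, occurred in Neurog1 and Olig2 (11.0% of all), and TATAAA in Olig2, 8 bases before its start, and in the outermost Otx2 promoter, 192 bases before (12.6% of all). Letters shared by overlapping motifs were counted for each.

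Peaks covered much of the small genes of the set. Olig1 (2171 bp) was covered over 84.2% of its length by a single peak of 2730 bp (91268866 to 91271595 on chromosome 16). Neurog2 (2904 bp) was covered over 65.0%, Neurog1 (1703 bp) over 52.8%, Olig2 (3128 bp) over 48.5%, Sox1 (4037 bp) over 46.6% and Neurod1 (4000 bp) over 23.4%. The median of these 6 was 50.7%, and that of 4973 protein-coding genes under 5 kb was 0%, with 69.9% of the latter below the lowest of the 6. A median of 0% reflects short genes with no peak over them, whereas each of the 6 held a peak. Coverage among short genes that hold a peak was not computed. The larger Pax6 (29515 bp) and Otx2 (10864 bp) were covered over 22.6% and 21.2%, against a median of 7.47% over all protein-coding genes.

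Within Pax6 and Otx2 several separate peaks made up that coverage. Pax6 held 9 peaks over its body, the widest after the one at its start being 2090 bp (105674693 to 105676782) and 1513 bp (105687388 to 105688900). The peak of 321 bp at 105669816 also touches the end of Pax6os1, an antisense long non-coding RNA. Otx2 held 4, of 225 to 1011 bp, and its widest peak, 2112 bp (48653606 to 48655717), stood outside, 1.06 kb beyond the 3′ end. Sox1, Olig2, Neurog2 and Neurod1 held 2 peaks each and Olig1 and Neurog1 held 1. In all, 23 distinct peaks overlapped the genes, with a median width of 882 bp, and 143 lay outside them, with a median width of 677 bp. The median over all peaks was 578 bp.

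**Figure D3:**
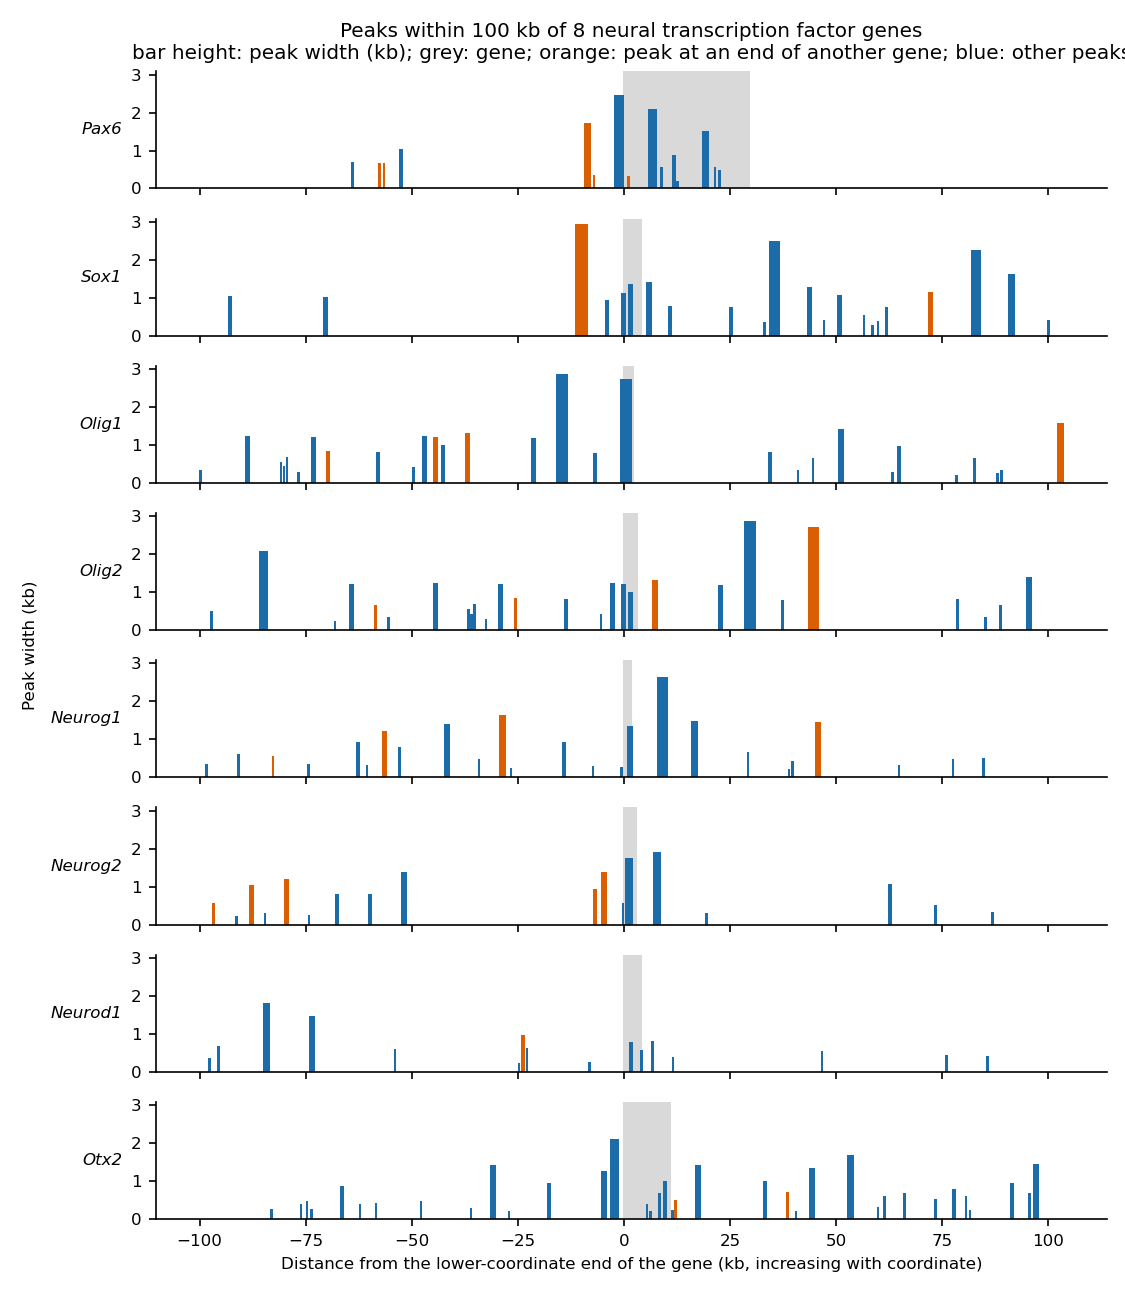
Peaks within 100 kb of each of the 8 genes; the horizontal axis is distance in kb from the lower-coordinate end of the gene, bar height is peak width in kb, and bars under 0.6 kb are drawn 0.6 kb broad. Grey is the gene, and orange bars lie within 500 bp of an end of another gene. No bar stands to the right of Pax6, and Otx2 has the most bars, 36.

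The surroundings of Pax6 were one-sided. All 6 of its peaks outside the gene lay upstream, 6.89 to 63.6 kb away, and none lay within 100 kb downstream. From the last peak in the gene to the next on the chromosome was a stretch of 154 kb, which runs through the 3′ part of Pax6 and into Elp4, the neighbouring gene of 207 kb whose introns are known to hold Pax6 enhancers used in the eye and brain. The next peak, starting at 105845238, lay 147 kb past the end of Pax6 and inside Elp4. An empty 100 kb beyond at least 1 end was found in 3.85% of protein-coding genes. The 2 peaks nearest upstream, 1736 and 351 bp wide, lay at an end of Paupar, a long non-coding RNA known to act with Pax6.

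Sox1 had its peaks mostly downstream, 16 against 4 upstream. The nearest downstream, 1411 bp wide, lay 1.17 kb past the gene, and 10 of the 16 lay 20 to 60 kb away. The widest peak of the whole set, 2939 bp (12384016 to 12386954 on chromosome 8), lay 8.57 kb upstream at the end of Sox1ot, a long non-coding RNA that overlaps Sox1. Of all peaks, 0.138% were at least as wide, a share over single peaks, while this one is the widest of 166. Of the 22 peaks of Sox1, 12 were at least 1 kb wide, and their median width was 1031 bp, the highest of the 8 genes.

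Olig2 and Olig1 lie 41.1 kb apart on chromosome 16, and 4 peaks stood between them. Of these, 3 were at least 1 kb wide, among them one of 2878 bp (91253830 to 91256707), 25.2 kb from Olig2 and 13.1 kb from Olig1. That is the widest peak of both windows, and its width was reached by 0.163% of all peaks taken singly. Around Olig2 16 peaks lay upstream and 9 downstream. A run of 5 peaks stood 28.4 to 36.3 kb upstream of it. Olig1, by contrast, had no peak from its own to 31.8 kb on its higher-coordinate side. The farthest Olig1 peak, at 99.9 kb, touches an end of Ifnar2, an interferon receptor gene.

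The proneural genes differed in how evenly peaks were spread. Neurog1 had 25, with at most 18.2 kb between neighbouring peaks, and its widest, 2642 bp (56258251 to 56260892 on chromosome 13), lay 6.07 kb upstream. Neurog2 had 18, none of them 20 to 50 kb away, and at most 43.7 kb between neighbouring peaks. Its widest, 1906 bp (127639643 to 127641548 on chromosome 3), lay 4.01 kb downstream. One Neurog2 peak, 1040 bp wide and 87.3 kb upstream, lies at the miR-302 cluster, a set of microRNAs of pluripotent cells, and another of 1210 bp lies at ends of both Larp7 and Zgrf1. Neurod1 had 16 peaks, of which 2 reached 1 kb, and its widest, 1810 bp (79367521 to 79369330 on chromosome 2), was also the most distant of the widest peaks, 83.3 kb downstream.

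Otx2 was the most densely surrounded, with 36 peaks, 18 of them upstream, 14 downstream and 4 in the gene. The longest stretch between neighbouring peaks of the window was 14.4 kb, the shortest such value of the 8. Of its peaks, 2 touched ends of other genes, among them one of 493 bp at Otx2os1, a long non-coding RNA whose end lies on the upstream side.

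Peak density over gene and flanks placed the 8 genes on either side of the genome median. It was 17.1 peaks per 100 kb at Otx2, 14.3 at Olig1, 13.3 at Olig2, 12.4 at Neurog1, 10.8 at Sox1, 8.87 at Neurog2, 7.84 at Neurod1 and 6.54 at Pax6. The median was 11.6, against 10.3 for all protein-coding genes. Otx2 exceeded 84.5% of protein-coding genes and Pax6 exceeded 29.1%, so the set as a whole did not sit at an extreme. Olig1 and Olig2 share most of their windows and are not independent values.

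**Figure D4:**
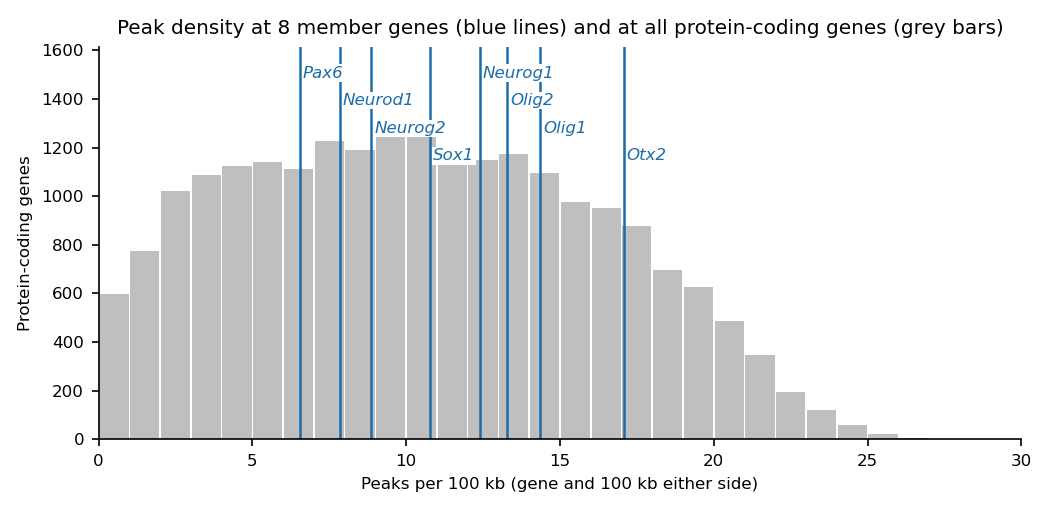
Peaks per 100 kb over a gene and 100 kb either side (horizontal axis) for all protein-coding genes (grey bars, number of genes) with the 8 neural transcription factor genes as blue lines. They run from 6.54 at Pax6 to 17.1 at Otx2, around the median of 10.3.

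By peak midpoint, average peak density outside the genes was highest within 5 kb and lowest from 5 to 20 kb. A peak that overlaps a gene counts as outside when its midpoint is. Within 5 kb this takes in the start peaks of Pax6 (2455 bp), Sox1 (1112 bp), Olig2 (1217 bp) and Neurod1 (572 bp). It also takes in the 577 bp peak at the lower end of Neurog2. The same rule was used for all protein-coding genes. Peaks shared by the Olig1 and Olig2 windows count for both genes in these averages. Within 5 kb outside the gene, by peak midpoint, the 8 genes averaged 21.3 peaks per 100 kb, against 11.7 over all protein-coding genes. The counts of peaks behind this average ranged from 0 at Olig1 to 4 at Otx2. From 5 to 20 kb the averages were 7.92 and 11.1, from 20 to 50 kb 10.0 and 10.6, and from 50 to 100 kb 10.6 and 10.2. At least 1 kb of width was reached by 55 of the 166 peaks (33.1%), against 20.7% of 165744 peaks on assembled chromosomes. The widest peak of each gene ranged from 1810 bp at Neurod1 to 2939 bp at Sox1, and 3.02% of all peaks were as wide as the smallest of these. That share is over single peaks, and the widest peaks of other genes' windows were not computed.

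Some of the peaks lay at ends of other genes. Of the 166, 23 lay within 500 bp of an end of a gene outside the set, and 5 of these at an end of a protein-coding gene, namely Ifnar2, Cxcl14, Larp7 (with 2 peaks, one shared with Zgrf1) and Cerkl. Of the 143 peaks outside the 8 genes, 24 overlapped some other protein-coding gene. The same shares were not computed over all peaks. The protein-coding ends that the windows hold were not counted, so these counts cannot be called low or high. The nearest protein-coding neighbour that does not overlap the gene was 14.7 kb away for Neurog2 (Zgrf1), 112 kb for Sox1 (A230072I06Rik) and 206 kb for Pax6 (Immp1l). Of long non-coding RNA genes, 22 had an end in a window, and 13 of these had a peak at an end, against 45.3% of 12637 such genes. They include Pax6os1, Paupar, Sox1ot and Otx2os1, while Gm33175 and Gm51562 near Sox1 had none.

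Of 44 other neural transcription factor genes, 43 had a peak at an end (97.7%, 95% Wilson interval 88.2 to 99.6). Neurod6 was the exception, its nearest peak 0.552 kb from an end. The median of their widest end peaks was 1501 bp. Atoh1, a proneural bHLH gene, had a peak of 2502 bp. Neurog3 and Neurod2, relatives of Neurog1 and Neurod1, had peaks of 1725 and 2306 bp. All 3 lie above that median and were named after their values were seen. A promoter peak at any listed start was found in 24 of the 30 genes with one (80%), and in 7 of 7 of the genes described above, against 69.2% of 17492 protein-coding genes. The median density of the 44 was 8.15 peaks per 100 kb and their median gene coverage 33.8%, beside 11.6 and 47.5% for the 8. Of 31 genes for structural, synaptic and other proteins of neural cells, from progenitors to neurons and glia, 24 had a peak at an end (77.4%, 60.2 to 88.6), near the 71.4% of all protein-coding genes. Their median gene coverage was 8.80%, against 7.47% over all protein-coding genes. Nes, Tubb3, Map2 and Syp had a peak, and the nearest lay 30.2 kb from Dcx, 0.542 kb from Rbfox3, 3.35 kb from Gfap and 0.764 kb from Gad2. Gene length differs between these lists and affects coverage, and the differences between lists were not tested.

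Pluripotency factors mark the labelled cell type. Of 19, 18 had a peak at an end (94.7%, 75.4 to 99.1), and Nr5a2 lacked one, its nearest lying 2.00 kb away. The median of their widest end peaks was 1511 bp. Pou5f1 and Sox2, named after their values were seen, lay above it with peaks of 2567 and 2470 bp. The median density of the 19 was 15.8 peaks per 100 kb, a level that Otx2 exceeded and the other 7 genes did not. These values include Tcf3 on chromosome 10 (22.7 peaks per 100 kb, with a peak at an end). It is an E-protein gene that shares an older name of the pluripotency regulator Tcf7l1. Since 43 of 44 other neural transcription factor genes had such an end too, peaks at ends do not check the cell type here. Accessible ends of neural genes do not measure their transcription, and the share of cells behind a peak is unknown.

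**Figure D5:**
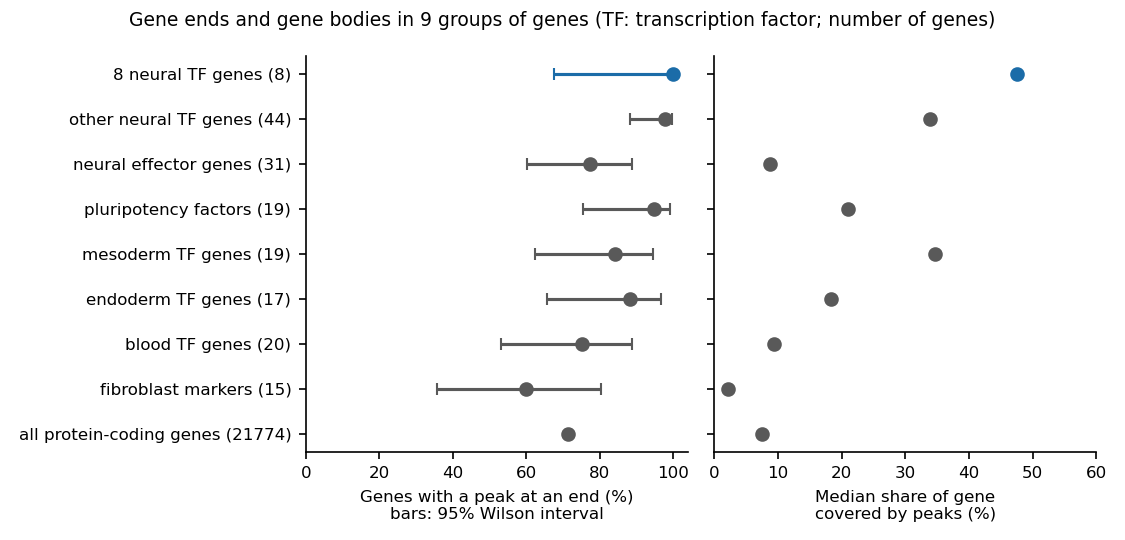
Left: percent of genes with a peak within 500 bp of an annotated end, with 95% Wilson intervals over genes, for the 8 neural transcription factor genes, 7 other lists and all protein-coding genes. Right: median percent of gene length covered by peaks, which is 47.5% for the 8 genes and 7.47% for all protein-coding genes.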

How the data were processed

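Per the labels, ATAC-seq was done at 6 times with 3 repeats each. The authors deposited merged peak positions (chromosome, start, end), with no value per library. The number of unused per-sample columns was 0. Tools listed in the submitters' processing notes, with no role or order, are MACS2 2.2.7.1, Bowtie2 2.4.2 and Trimmomatic 0.36, with builds mm10 and GRCm38. The peak threshold, merging, duplicate removal and offset of insertions are not given in the sources used here. These could change which peaks exist and shift their edges. Sequencing depth is unknown.

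Gene positions and promoters came from RefSeq tables of GRCm38.p6. The promoter table gave strands for 17492 protein-coding genes. Genes with scaffold coordinates were left out. Peaks were read as 0-based intervals and overlapped by at least 1 bp. Observed to expected CpG is the CpG count times length over the product of C and G counts. Wilson intervals are at 95% and cover counting over genes only. Members and gene lists were chosen with earlier results of these data known, and every member is named. Of other lists, all genes without a peak are named up to 5, otherwise the first 4 with and without. The result of 1 other neural gene is not reported here. Overlap code was tested on simulated peaks. Python 3.11.15, numpy 2.4.6, pandas 2.3.3 and matplotlib 3.10.9 were used. Alternatives were other windows, overlaps, flanks and peak widths.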

Additional observations from a re-analysis of the deposited data

How the results depend on the processing

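No paired analysis was possible because the deposited positions carry no value per library. For the same reason leaving out each replicate in turn was not run. The share of the 8 genes with a peak at an end stayed between 75% and 100% under 6 alternatives, and fell to 6 of 8 when only peaks wider than the median or of at least 1000 bp were counted, against 66.7% and 54.8% of all protein-coding genes. Of other neural transcription factor genes, 100% had a peak with windows of 2000 bp (79.7% of all protein-coding genes), 77.3% with peaks of at least 1000 bp, and 76.7% at the promoter of the outermost start (67.7% of all), an alternative chosen after seeing the data. The number of peaks around the 8 genes was 93 with flanks of 50 kb, 299 with flanks of 200 kb, 97 with peaks wider than the median and 55 with peaks of at least 1000 bp. The last 2 settings gave median densities of 6.90 and 3.87 per 100 kb, against 5.39 and 2.31 over all protein-coding genes. Without a width limit the median densities were 11.6 and 10.3. Other flanks count over more or less DNA and width limits count fewer peaks, and what drove each shift was not tested. Unknown depth limits every absence of a peak.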

Other observations

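The share of the 8 genes had an interval (67.6 to 100) that holds the 71.4% of all protein-coding genes. So did the shares of transcription factor genes of other lineages with an accessible end. These intervals treat genes as independent, and the lists were chosen with earlier results known, so they describe the counts and are no test. Mesoderm factors had one in 16 of 19 cases (84.2%, 95% Wilson interval 62.4 to 94.5), and Gata4, Meox1 and Myf5 were those without. Endoderm factors had one in 15 of 17 (88.2%, 65.7 to 96.7), and Foxa1 and Hnf4a had none. Blood factors had one in 15 of 20 (75%, 53.1 to 88.8), and the exceptions were Gata1, Runx1, Klf1, Cebpe and Foxp3. The nearest peak lay 6.86 kb from Gata1 but 0.516 kb from Klf1, just outside the window. Median gene coverage was 34.8% for mesoderm, 18.3% for endoderm and 9.34% for blood factors.

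Of 15 fibroblast markers, 9 had an accessible end (60%, 35.7 to 80.2), against 71.4% of all protein-coding genes, with a median gene coverage of 2.19%. Col1a1, Col1a2, Col5a1 and Dcn had one, while the nearest peaks lay 2.17 kb from Col3a1, 1.95 kb from Col6a1, 2.03 kb from Lum and 5.72 kb from Postn. The median density around these genes was 5.04 peaks per 100 kb. Differences between lists were not tested.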
